A study of Mus musculus with 33 samples.

Results

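Neurexins, neuroligins and Cntnap2 are neuronal cell-surface proteins, and 6 of their genes are described here across mouse motoneuron cultures and a motoneuron-like cell line. Nrxn2, Nrxn3, Nlgn1, Nlgn2, Nlgn3 and Cntnap2 were taken by their gene symbols, 6 of 37926 records in the RNA tables and 6 of 36194 genes in the iCLIP files. The study measured RNA in primary motoneurons of CD-1 mice after knockdown of the RNA-binding protein hnRNP R or of the noncoding RNA 7SK, and the RNA that hnRNP R contacts. In the RNA-seq experiment the cells grew in microfluidic chambers, which separate axons from the somatodendritic side. Each compartment had 4 GFP control, 3 hnRNP R knockdown and 4 7SK knockdown libraries. All control cultures carry the GFP label, and the labels do not describe the knockdown method. The iCLIP experiment, in which ultraviolet light crosslinks a protein to RNA and each cDNA end marks a contact, had 11 libraries. Antibody 1 against hnRNP R was used on wildtype motoneurons, with 2 unfractionated libraries, 1 nuclear and 1 cytoplasmic. It was also used on NSC34 cells, a hybrid line of mouse neuroblastoma and spinal cord cells, with 2 unfractionated libraries, 1 nuclear and 1 cytoplasmic. Antibody 2 was used on nuclear and cytoplasmic NSC34 fractions, with 1 library each, and 1 NSC34 library was made with control IgG. Age, sex and pooling of embryos are not given in the labels. Nothing there makes the replicates separate cultures, and the spread behind each p-value may thus be technical.

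Neurexins sit mainly on the presynaptic membrane and reach across the cleft to neuroligins on the postsynaptic side, and this contact helps to organise synapses. Nlgn1 acts mostly at excitatory synapses, Nlgn2 at inhibitory synapses, and Nlgn3 at both. Cntnap2, also called Caspr2, belongs to the neurexin superfamily and gathers potassium channels beside the nodes of Ranvier of myelinated axons, together with the contactin Cntn2. Several of these genes are among the longest in the genome, because their introns are very large, and neurexin transcripts are spliced in many forms. hnRNP R is a nuclear and cytoplasmic RNA-binding protein that associates with 7SK RNA, which itself restrains the transcription elongation kinase P-TEFb.

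The libraries set limits on what follows. Total sense cDNAs per iCLIP library ran from 91302 to 359005 in motoneurons, from 2796 to 456721 in NSC34 cells with hnRNP R antibodies, and came to 36280 with IgG. The RNA tables give 1 FPKM value (fragments per kilobase of transcript, scaled to sequencing depth) per group, so their depth is unknown. Hnrnpr stood at 39.9% of control in hnRNP R knockdown cell bodies (27.2 and 10.8 FPKM, q = 0.310) and at 40.1% in axons, where it was untested, in the authors' deposited tables. Rn7sk fell to 70.0% of control in 7SK cell bodies (q = 0.00407) but stood at 130% in the axon group labelled 7SK knockdown (q = 0.594), against its label, per the authors' deposited tables. With hnRNP R knockdown Rn7sk was called higher in cell bodies, at 136% of control (q = 0.00865 in the authors' deposited table). In hnRNP R axons it stood at 172% and was not called (q = 0.566 in the authors' deposited table). Of 7 motoneuron markers 6 had a record, and Chat, Isl2 and Mnx1 were listed at 0 in every group, with a summed control level of 2.29 to 2.93 FPKM in the authors' deposited tables. In control cell bodies of the hnRNP R comparison, the authors' deposited table summed to 151 FPKM for markers of other neurons and 329 for astrocytes and radial glia. Oligodendrocyte and Schwann cell markers came to 79.2, microglial to 43.4 and fibroblast to 13.8 FPKM there. In the 2 unfractionated motoneuron iCLIP libraries all 6 motoneuron markers had 0 cDNAs, against 33 and 3 summed in unfractionated NSC34 cells. Markers of other neurons (5 genes) held 242 and 182 cDNAs in these motoneuron libraries, against 6 and 0 in the NSC34 libraries. As a share of the motoneuron libraries this was 674 and 570 cDNAs per 1000000 (CPM). Astrocyte and radial glia markers (7 genes) held 202 and 135 in motoneurons and 102 and 14 in NSC34 cells. The part of these other cell types in the results was not tested.

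On build GRCm38 the RNA tables place Nrxn2 on chromosome 19 from 6418731 to 6544899 and Nrxn3 on chromosome 12 from 88722876 to 90334935. Nlgn1 lies on chromosome 3 from 25431811 to 26133734, Nlgn2 on chromosome 11 from 69823122 to 69837784 and Cntnap2 on chromosome 6 from 45060061 to 47301369. The record that holds Nlgn3, on chromosome X from 101274030 to 101325963, also holds its neighbour Med12, a Mediator subunit. Its RNA value is therefore not that of Nlgn3 alone. Summed intron length, as the iCLIP files imply it, was 2234 kb for Cntnap2, and only 2 of 15414 genes were longer. Such a length is known only for genes with an intronic cDNA in some library, and the 15414 are these genes. Introns of Nrxn3 came to 1600 kb and those of Nlgn1 to 697 kb. Nrxn2 had 112 kb, Nlgn3 18.2 kb and Nlgn2 8.88 kb. Among these genes Cntnap2, Nrxn3 and Nlgn1 thus stood at the extreme of intron length. Nrxn2 was long with 1955 of 15414 genes above it, and Nlgn2 and Nlgn3 were below the middle of their range.

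In control cell bodies Nrxn2 was the most abundant of the 6 at 86.5 FPKM, in the authors' deposited table of the hnRNP R comparison. The joint Med12 and Nlgn3 record followed at 79.6 FPKM, then Nrxn3 at 58.4, Cntnap2 at 55.8, Nlgn2 at 37.7 and Nlgn1 at 11.9 FPKM, per the authors' deposited table. With 1 value per group there was no spread to say which neighbours in this order differ. The 7SK table uses the same control libraries on its own scale (hnRNP R table over 7SK table, median 1.09 across 12372 records) and gave the same order, with Nrxn2 at 79.6 and Nlgn1 at 10.9 FPKM, in the authors' deposited table. Control axons had less of each, with Nrxn3 at 31.5, the Med12 and Nlgn3 record at 32.0, Nrxn2 at 24.3, Nlgn2 at 13.7, Cntnap2 at 9.65 and Nlgn1 at 4.14 FPKM in the authors' deposited table.

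The axonal level of Cntnap2 was 17.3% of its somatodendritic level, the lowest of the 6, from the authors' deposited tables. Nrxn2 stood at 28.1%, Nlgn1 at 34.9%, Nlgn2 at 36.3%, the Med12 and Nlgn3 record at 40.3% and Nrxn3 at 53.9%, from the authors' deposited tables. On a log2 scale with 0.1 FPKM added, the axon to cell body ratio was -2.52 for Cntnap2 and -0.89 for Nrxn3, against a median of -0.58 over 13576 records at 1 FPKM or more. All 6 ratios lay under that median, and 6.40% of the records had a lower ratio than Cntnap2. Compartments were scaled in separate tables, so these ratios are levels set across tables and carry no test.

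**Figure D1:**
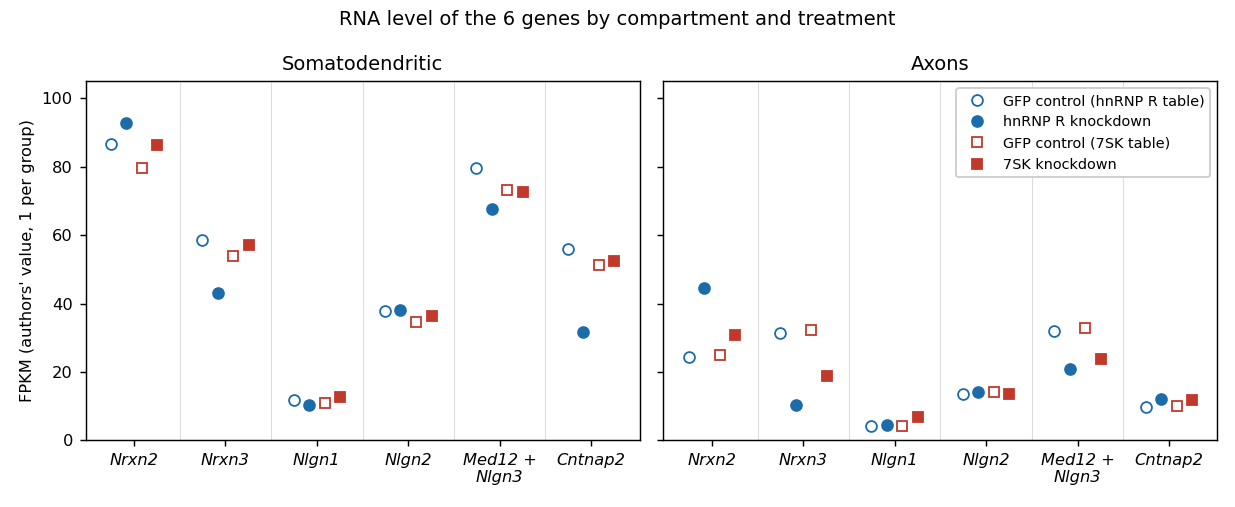
The y axis gives the authors' FPKM, 1 value per group, for the 6 genes on the x axis, with cell bodies on the left and axons on the right. Open symbols are GFP controls and filled symbols knockdowns. Nrxn3 stands at 31.5 and 10.2 FPKM in control and hnRNP R knockdown axons and Cntnap2 at 55.8 and 31.6 FPKM in cell bodies, while 7SK knockdown values of cell bodies lie close to their controls.

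Neither knockdown gave a called change in any of the 6 genes, at the authors' q under 0.05. In axons after hnRNP R knockdown 3 records were tested and 0 called, where 0.114% of all 1749 tested were called. Nrxn3 had the largest difference there, 31.5 FPKM in control and 10.2 FPKM in knockdown axons, and the authors' deposited table gives it a log2 ratio of -1.63 (p = 0.0044, q = 0.226). It ranked 33 by p-value among the tested records, of which 9.26% had an unadjusted p under 0.05. Nrxn2 had the opposite sign, 24.3 and 44.6 FPKM (log2 ratio 0.87, q = 0.633), and by the authors' deposited table the Med12 and Nlgn3 record stood at 32.0 and 20.7 FPKM (log2 ratio -0.63, q = 0.752). The ratios of both neurexins had opposite signs, and neither passed the test. The axonal level as a share of the cell body level was 53.9% in controls and 23.7% in knockdown for Nrxn3, and 28.1% and 48.1% for Nrxn2, as computed from the authors' deposited tables, with no test. Untested for low level were Cntnap2 at 9.65 and 12.0 FPKM, Nlgn2 at 13.7 and 14.3 FPKM and Nlgn1 at 4.14 and 4.41 FPKM, as the authors' deposited table lists them. In bulk RNA fewer cells of a type and less RNA per cell cannot be told apart.

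On the somatodendritic side of the hnRNP R knockdown 5 records were tested and 0 called, where 0.975% of 2768 were called. Cntnap2 was listed at 55.8 FPKM in control and 31.6 FPKM in knockdown by the authors' deposited table (log2 ratio -0.82, p = 0.068, q = 0.444). Nrxn3 was at 58.4 and 43.1 FPKM (log2 ratio -0.44, p = 0.0456, q = 0.381), the same sign as in axons, and 12.3% of the records had an unadjusted p under 0.05, per the authors' deposited table. These compartments come from the same chambers and do not count as separate evidence. The others stood close to control, Nrxn2 at 86.5 and 92.7, Nlgn2 at 37.7 and 38.0 and the Med12 and Nlgn3 record at 79.6 and 67.5 FPKM, with q-values from 0.668 to 0.991 by the authors' deposited table. Nlgn1, at 11.9 and 10.4 FPKM, had no test by the authors' deposited table.

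After 7SK knockdown the 5 records tested in cell bodies had log2 ratios from -0.02 to 0.12, and 0 were called, where 2.51% of 1954 were called in the authors' deposited table. Cntnap2 was at 51.3 and 52.4 FPKM and Nrxn3 at 53.8 and 57.0 FPKM by the authors' deposited table, with q-values of 0.980 and 0.904. Whether hnRNP R and 7SK knockdown differ in these genes could not be tested, because the tables hold group values and share their controls. In the axon group labelled 7SK knockdown none of the 6 was tested, and 3.07% of 1009 tested records were called. Nrxn3 was listed there at 32.4 and 18.9 FPKM (log2 ratio -0.78), Nrxn2 at 24.9 and 30.9 (0.31) and Nlgn1 at 4.25 and 6.76 (0.67) in the authors' deposited table. Microglial markers (8 genes) summed to 8.64 FPKM in these control axons and 112 FPKM in the axon group labelled 7SK knockdown, against 8.46 and 15.9 FPKM in the hnRNP R table, from the authors' deposited tables. Their part in these values was not tested.

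The iCLIP cDNAs on Cntnap2, Nlgn1 and Nrxn3 were found mainly in motoneurons. With no IgG library of motoneurons, the share of background among these cDNAs was not measured. Cntnap2 had 2641 and 3025 cDNAs in the 2 unfractionated motoneuron libraries, 1488 in the cytoplasmic and 426 in the nuclear library. By count it ranked 5 and 3 among all genes of the unfractionated libraries. Per kb of intron Cntnap2 exceeded 90.6% and 94.3% of genes with at least 10 intronic cDNAs in these libraries. The share was 89.2% in the cytoplasmic and 57.3% in the nuclear library. In NSC34 cells it had 23 and 5 cDNAs unfractionated, 0 and 3 in the cytoplasmic and nuclear fractions of antibody 1, 0 in both fractions of antibody 2, and 3 with IgG. Nlgn1 had 2018 and 1071 cDNAs in unfractionated motoneurons, 917 in the cytoplasmic and 269 in the nuclear library, against 6 and 3 in unfractionated NSC34 cells, 0 in the other NSC34 fractions and 2 with IgG. Nrxn3 had 1622, 1233, 862 and 297 in the same order of motoneuron libraries, 14 and 1 in unfractionated NSC34 cells, 5 and 1 in the nuclear fractions of antibodies 1 and 2, and 7 with IgG. For these 3 genes every motoneuron library was above every NSC34 library that held any cDNA, and above the limit that 0 cDNAs allow in the others.

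The other 3 genes held far fewer cDNAs in motoneurons. Nrxn2 had 70 and 59 cDNAs in unfractionated motoneurons and 32 in each fraction, and 76 and 8 in unfractionated NSC34 cells, 12 in the nuclear fraction of antibody 1 and 12 with IgG. In CPM its 95% Wilson intervals overlapped between cell types, with 195 (154 to 246) and 185 (143 to 238) in motoneurons, 166 (133 to 208) and 80.2 (40.6 to 158) in NSC34 cells and 331 (189 to 578) with IgG. Nlgn2 had 14 and 7 cDNAs in unfractionated motoneurons, 2 in the cytoplasmic and 18 in the nuclear library, and 8 and 2 in unfractionated NSC34 cells, 1 in the nuclear fraction of antibody 1 and 1 in the cytoplasmic fraction of antibody 2. Nlgn3 had 9 and 10 in unfractionated motoneurons, 14 in the cytoplasmic and 4 in the nuclear library, and 1 and 1 in unfractionated NSC34 cells and 1 in the nuclear fraction of antibody 1. Neither had a cDNA with IgG, where a count of 0 allows up to 82.7 CPM. Together the 6 genes held 1.15% to 1.78% of all cDNAs in the 4 motoneuron libraries, at most 0.0455% in the 6 NSC34 libraries with hnRNP R antibodies and 0.0662% with IgG. Such intervals and limits cover counting error only.

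**Figure D2:**
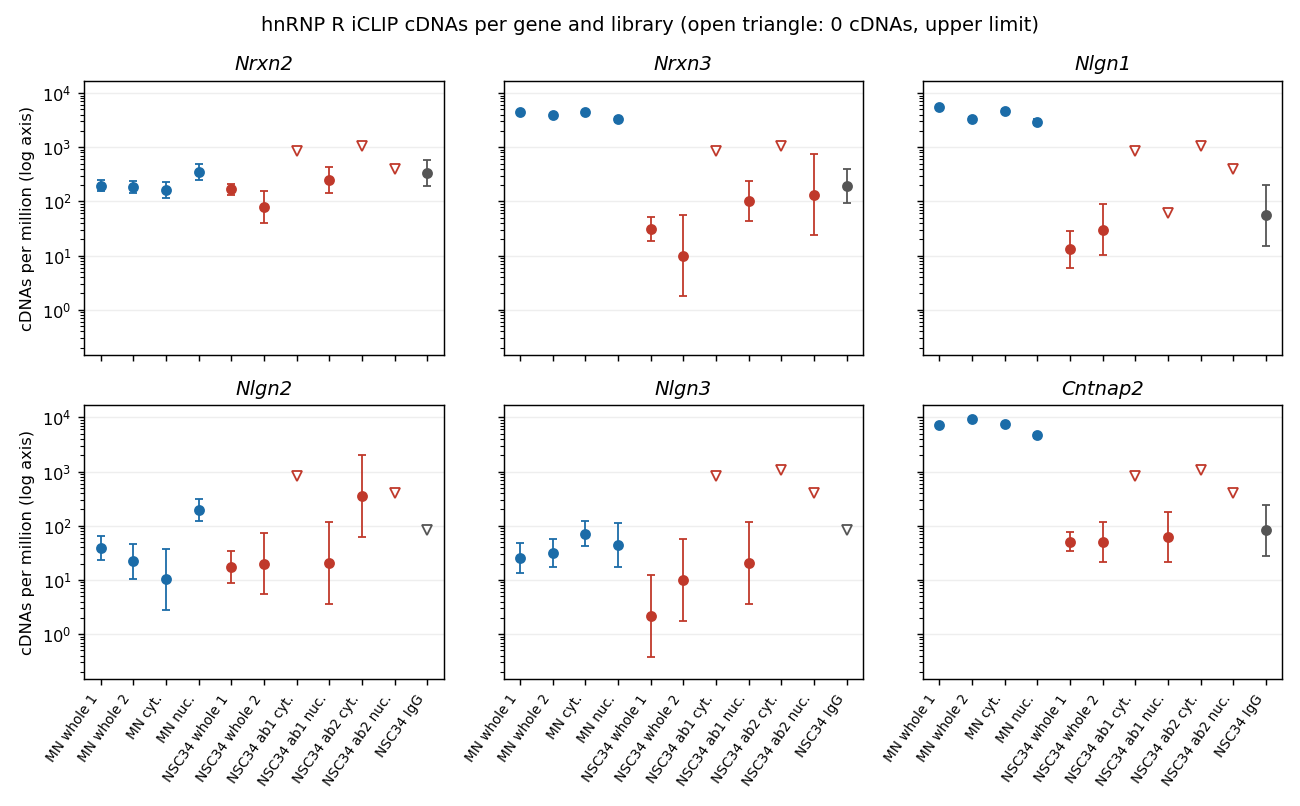
Each panel gives 1 gene, with CPM (cDNAs scaled to library depth) on a log axis for each of the 11 iCLIP libraries (MN, motoneurons, blue; NSC34, red; IgG, grey). Points carry 95% Wilson intervals, and open triangles mark the upper limit that 0 cDNAs allow. Nrxn3, Nlgn1 and Cntnap2 lie at 2946 CPM or more in all 4 motoneuron libraries, while Nrxn2 shows overlapping intervals in both cell types.

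Unfractionated motoneurons were compared with NSC34 cells by edgeR's quasi-likelihood test across 9567 genes, of which 37.3% were called at an adjusted p under 0.05 and 23.4% were called higher in motoneurons. All 6 genes were kept and all 6 were called higher, but Nlgn3 passed the count filter only through its motoneuron cDNAs. CPM values here and below are scaled to library totals. The log2 differences beside them come from the fit with TMM scaling, so they are not the ratios of those CPM values. Nlgn1 was at 4487 ± 1604 CPM in motoneurons (SD, n = 2) and 21.6 ± 12.0 in NSC34 cells (SD, n = 2), a log2 difference of 8.98 (SE 0.41, edgeR adjusted p = 1.51e-30). Cntnap2 was at 8414 ± 1496 and 50.2 ± 0.169 CPM (SD, n = 2 each), a log2 difference of 8.31 (SE 0.36, edgeR adjusted p = 1.42e-31). For Nrxn3 the levels were 4189 ± 465 and 20.3 ± 14.6 CPM (SD, n = 2 each), with a log2 difference of 8.24 (SE 0.37, edgeR adjusted p = 9.77e-31). In each of these 3 genes both motoneuron libraries were above both NSC34 libraries by far more than the spread of either pair. Without NSC34 replicate 1 the log2 difference was 7.93 for Nlgn1 and 9.33 for Nrxn3, which changed the order of the 3. Nrxn3 also stood above Cntnap2 without motoneuron replicate 2 (8.24 and 8.04) and with a replicate block (8.34 and 8.23). The order of the 3 is therefore not settled. Library totals in place of TMM scaling gave 8.03 for Nlgn1, 7.36 for Cntnap2 and 7.28 for Nrxn3, each still called.

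The remaining differences were smaller and rested on fewer cDNAs. Nlgn3 stood at 28.2 ± 4.41 and 6.11 ± 5.54 CPM (SD, n = 2 each), a log2 difference of 3.64 (SE 0.96, edgeR adjusted p = 0.00145). It passed the count filter, which DESeq2 shared, only through its motoneuron cDNAs, so this call is given as description only. That call was lost with DESeq2 (adjusted p = 0.211), which called 4 of the 6 and 15.6% of all genes, and without NSC34 replicate 1 (log2 difference 2.14, edgeR adjusted p = 0.246). Nlgn2 stood at 30.5 ± 12.1 and 18.8 ± 1.79 CPM (SD, n = 2 each), a log2 difference of 1.68 (SE 0.67, edgeR adjusted p = 0.0396), and was lost under 7 of 10 alternatives, with 1.04 without motoneuron replicate 1. Nrxn2 stood at 190 ± 7.25 and 123 ± 61.0 CPM (SD, n = 2 each), a log2 difference of 1.38 (SE 0.30, edgeR adjusted p = 0.000127). Without NSC34 replicate 1 it was 1.98 and called, and with library totals in place of TMM scaling it was 0.42 and not called (edgeR adjusted p = 0.243). The ratio of pooled Nrxn2 counts was 1.26 (exact 95% interval 0.950 to 1.68). TMM scaling put the median of all genes at a log2 difference of 0.08 with 2237 of 3566 calls higher, and library totals put it at -0.86 with 1343 of 4897 higher, so the small differences of Nrxn2 and Nlgn2 depend on the scaling. RNA levels of NSC34 cells were not analysed here, so more contact per RNA and more RNA cannot be told apart in this comparison.

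**Figure D3:**
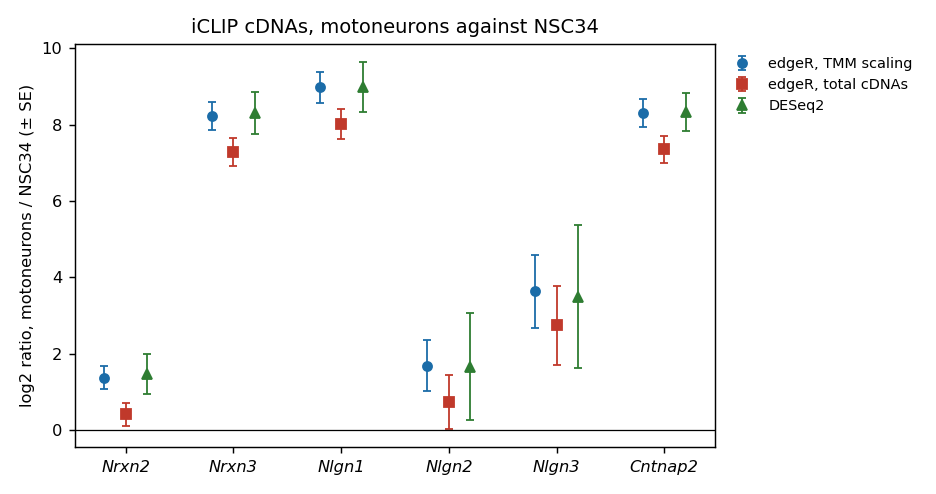
The y axis is the log2 ratio of iCLIP cDNAs in motoneurons over NSC34 cells, with bars of 1 SE, for 6 genes and 3 ways of scaling and testing. Cntnap2, Nlgn1 and Nrxn3 lie above 7 in all 3, while Nrxn2 falls to 0.42 with library totals.

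Most long genes were called higher in motoneurons. Of 183 tested genes with introns over 500 kb, 149 were called higher and 12 lower, where 23.7% of 9354 genes with a known intron length were called higher. Among the 183, 78 passed the count filter only through their motoneuron cDNAs. The median log2 difference was 5.39, with a 90th percentile of 9.19. Cntnap2, Nlgn1 and Nrxn3, at 8.24 to 8.98, lay above that median and below that percentile, and 54 of the 183 exceeded 8. Genes with 100 to 500 kb of introns had a median of 1.17, close to the 1.38 of Nrxn2. Among genes with 5 to 20 kb the median was -0.33 and the 90th percentile 1.43. Nlgn3 (3.64) lay above that percentile, while Nlgn2 (1.68, SE 0.67) could not be set apart from it. Of the 1683 tested genes with 100 to 500 kb, 492 passed the count filter only through their motoneuron cDNAs. Of the 2554 with 5 to 20 kb, 622 did, Nlgn3 among them, so the filter favours its high place. These length limits were chosen after the values were seen.

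**Figure D4:**
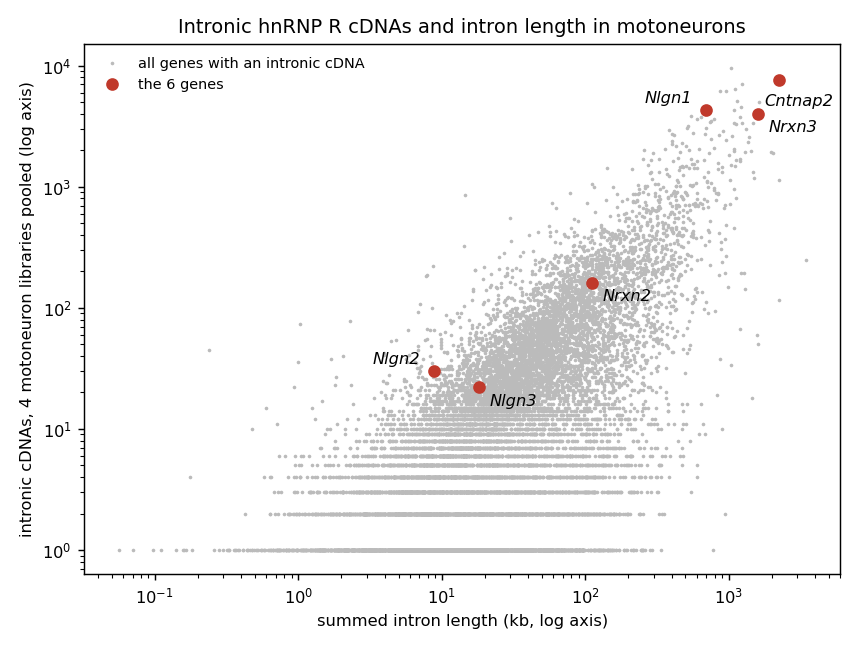
Each grey dot is a gene, with summed intron length in kb on the x axis and intronic cDNAs of the 4 motoneuron libraries pooled on the y axis, both on log axes. The 6 genes are red: Cntnap2, Nrxn3 and Nlgn1 sit at the upper right with 7569, 3995 and 4265 intronic cDNAs, and Nlgn2 and Nlgn3 with 30 and 22 lie among genes of ordinary length.

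In motoneurons the cDNAs on the 3 longest genes were almost wholly intronic. Of the cDNAs on Cntnap2 99.8% (95% Wilson interval 99.6% to 99.9%) and 99.9% (99.71% to 99.97%) fell in introns in the 2 unfractionated motoneuron libraries, where all genes together had 88.1% and 86.5%. Nrxn3 had 99.6% and 99.4% there, and Nlgn1 100% of 2018 and 99.5% of 1071. In the cytoplasmic motoneuron library the shares were 99.7% for Cntnap2, 99.5% for Nlgn1 and 99.7% for Nrxn3. All genes together had 87.5% there and 91.5% in the nuclear motoneuron library. In the cytoplasmic NSC34 libraries of antibodies 1 and 2 all genes had 26.4% and 43.0%. How cleanly nucleus and cytoplasm were separated was not tested. Nrxn2 had 85.7% (75.7% to 92.1%) and 76.3% (64.0% to 85.3%) in unfractionated motoneurons. Nlgn3 had 55.6% of 9 and 60.0% of 10 cDNAs in introns, and 7 of its 14 cytoplasmic cDNAs fell in the 3′ UTR. Nlgn2 had 78.6% of 14 and 57.1% of 7. The cDNAs were spread out, with 1.02 to 1.17 per hit position on Cntnap2, Nlgn1 and Nrxn3 in the motoneuron libraries.

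Per length the parts of a gene differed much less than the raw shares. Over the 4 motoneuron libraries pooled, Nlgn1 had the densest introns at 6.12 cDNAs per kb (exact Poisson 95% interval 5.93 to 6.30) and 0.758 (0.0918 to 2.74) in its coding sequence. Cntnap2 had 3.39 (3.31 to 3.47) in introns and 3.99 (1.99 to 7.14) in the 3′ UTR, with no coding cDNA in any library. Without such a cDNA its coding length could not be derived, so no coding density or upper limit is given for it. Nrxn3 had 2.50 (2.42 to 2.58) in introns, 1.57 (0.676 to 3.09) in coding sequence and 1.94 (0.399 to 5.66) in the 3′ UTR. Nrxn2 had 1.44 (1.23 to 1.68) in introns, 2.05 (1.29 to 3.11) in coding sequence and 3.33 (1.52 to 6.33) in the 3′ UTR. Nlgn3 had 1.21 (0.756 to 1.83) in introns, 0.530 (0.109 to 1.55) in coding sequence and 2.60 (1.34 to 4.54) in the 3′ UTR. Intervals of introns and 3′ UTR overlapped in all 6 genes. Those of introns and coding sequence overlapped in Nrxn2, Nrxn3, Nlgn2 and Nlgn3 and did not in Nlgn1. Whether coding sequence of Cntnap2 was less dense than its introns could not be compared. These intervals pool libraries and hold counting error only.

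RNA level and intron density were set side by side. Nlgn1 had the lowest RNA level in control cell bodies, 11.9 FPKM in the authors' deposited table, and the highest intron density in unfractionated motoneurons, 6.42 ± 2.31 CPM per kb (SD, n = 2). Nrxn2 had the highest RNA level, 86.5 FPKM in the authors' deposited table, and an intron density of 1.38 ± 0.166 (SD, n = 2). Cntnap2 was at 3.76 ± 0.670, Nrxn3 at 2.60 ± 0.293 and Nlgn2 at 2.43 ± 1.44 (SD, n = 2 each). Nlgn3 was at 0.897 ± 0.188 (SD, n = 2), and its RNA level is not known apart from Med12. RNA-seq and iCLIP came from different cultures, and FPKM counts mature transcripts while most cDNAs here are intronic.

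**Figure D5:**
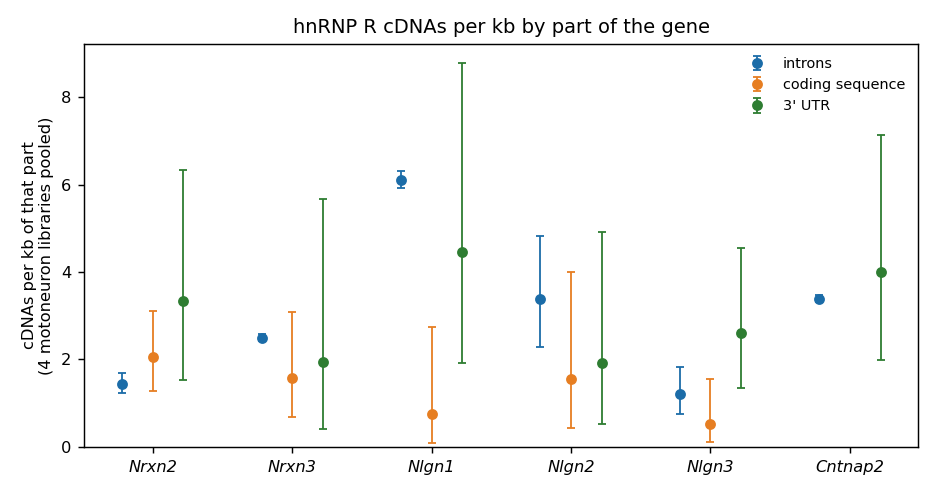
The y axis gives hnRNP R cDNAs per kb of introns, coding sequence or 3′ UTR, with the 4 motoneuron libraries pooled and exact Poisson 95% intervals. Intron density is highest for Nlgn1 at 6.12 per kb and lowest for Nlgn3 at 1.21, and Cntnap2 has no point for coding sequence because no coding cDNA was listed.

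Between nucleus and cytoplasm no gene was called, 0% of 5177, by edgeR across 6 libraries with a block for each pair of fractions. At an unadjusted p under 0.05 there were 27 genes with edgeR and 39 with DESeq2, and DESeq2 also called 0. Log2 differences of the 6 genes ran from -0.72 (Nlgn1, SE 2.52) to 2.46 (Nlgn2, SE 1.99), which leaves large differences in either direction undetected. The NSC34 fractions held 2796 to 48398 cDNAs and few or none on these genes. The test of whether the fraction difference itself differed between motoneurons and NSC34 cells, with 1 residual degree of freedom, also called 0% of 5177, with 5 at an unadjusted p under 0.05.

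Within the single motoneuron pair, Cntnap2 was lower in the nuclear library, 4666 against 7638 CPM, a ratio of 0.611 (exact 95% interval 0.547 to 0.681). Nlgn1 had a ratio of 0.626 (0.544 to 0.718) and Nrxn3 0.735 (0.642 to 0.840). Nrxn2 had the opposite sign at 2.13 (1.27 to 3.60), and Nlgn2, with 18 nuclear and 2 cytoplasmic cDNAs, had a ratio of 19.2 (4.60 to 171). Nlgn3 had 0.610 (0.146 to 1.94). Over 1110 genes with at least 50 cDNAs in the pair the median ratio was 0.945, with 10th and 90th percentiles of 0.571 and 1.81, so the 3 long genes lay between these and the interval of Nrxn2 held the upper one. Nlgn2 and Nlgn3 had too few cDNAs for this set. The 152 of these with introns over 500 kb had a median of 0.862. This compares 2 libraries, not conditions, and has no replicate check, and the purity of the fractions was not tested.

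Against IgG none of these genes was called above background in NSC34 cells. Of the 6 genes 0 were called, where 0.533% of 9567 genes were called by edgeR and 10.3% had an unadjusted p under 0.05. Nrxn3 stood at 27.0 CPM in NSC34 cells and 193 with IgG, a log2 difference of -2.59 (SE 0.74, edgeR adjusted p = 0.0904), and was called lower with library totals (-2.88, edgeR adjusted p = 0.0306). Nrxn2 differed by -0.97 (SE 0.53, edgeR adjusted p = 0.545), Cntnap2 by -0.45 (SE 0.88, edgeR adjusted p = 0.893) and Nlgn1 by -1.44 (SE 1.21, edgeR adjusted p = 0.726). DESeq2 called 0 of the 6 and 0.115% of all genes. For Nlgn2 and Nlgn3 both sides were under what 0 IgG cDNAs allow, so no fold is given. The header of the IgG file names hnRNP R and carries a library number shared with NSC34 replicate 2, and only its title makes it the IgG library. No IgG library of motoneurons was analysed here.

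Other proteins that bind neurexins and neuroligins were read as a list of 25 genes. In the RNA comparisons 7, 3, 14 and 9 of them were tested (hnRNP R axons, axons labelled 7SK knockdown, hnRNP R cell bodies, 7SK cell bodies) and 0 were called in any, in the authors' deposited tables, where 0.114%, 3.07%, 0.975% and 2.51% of all tested records were called. Shares this low leave next to no calls to find among so few genes. Median log2 ratios were 0.07, 0.59, -0.03 and -0.21, beside 0.14, 0.23, 0.02 and 0.06 over all tested records of the authors' deposited tables. In hnRNP R axons the lowest were the calsyntenin Clstn3 (-0.45) and the receptor phosphatase Ptprd (-0.36), and the highest the latrophilin Lphn1 (0.42) and dystroglycan Dag1 (0.38), per the authors' deposited table. Axons labelled 7SK knockdown had Clstn1 at 0.13, Lphn1 at 0.59 and Clstn3 at 0.69, per the authors' deposited table. hnRNP R cell bodies had Lrrtm3 (-0.47) and Mdga1 (-0.47) lowest and Clstn2 (0.23) and Lphn3 (0.16) highest, and 7SK cell bodies had Mdga1 (-0.96) and Lphn1 (-0.36) lowest and Clstn3 (0.10) and Ptprd (0.04) highest, per the authors' deposited tables.

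In iCLIP 18 of these 25 genes were kept in the comparison of motoneurons with NSC34 cells. edgeR called 13 higher and 0 lower, where 23.4% of all genes were called higher. Of all tested genes with introns over 500 kb 81.4% were called higher, and of those with 100 to 500 kb 54.7%. The part of intron length in the calls of this list was not tested. Of the 18, 8 passed the count filter only through their motoneuron cDNAs, Nxph1, Grid1, Clstn2, Lrrtm4, Clstn3, Lrrtm3 and Cbln1 among them. The median log2 difference was 5.93 beside 0.08 over all genes, or 4.57 with the 2 genes that had 0 cDNAs in NSC34 cells set at their bounds. Highest was Nxph1, a secreted neurexin ligand, at 10.64 with 1365 and 1 pooled cDNAs, followed by Grid1 at 9.85, a glutamate receptor relative that cerebellins link to neurexins. Ptprd was at 9.70, Clstn2 at 8.47, the postsynaptic adhesion protein Lrrtm4 at 8.39, and Mdga2, a blocker of neuroligin binding, at 8.36. Lphn3 was at 6.14, Clstn3 at 3.75, Lphn2 at 2.67 and Ptprs at 1.64. With 0 cDNAs in NSC34 cells against a floor of 3 over the group, Lrrtm3 was at least 41.8-fold and Cbln1 at least 3.28-fold higher. Lowest of the list were Lphn1 (-0.09) and Mdga1 (0.20), neither called. Against IgG the list had 1 call by edgeR, Lphn1, lower in NSC34 cells with a log2 difference of -1.76 (SE 0.38, edgeR adjusted p = 0.00749, 136 and 34 cDNAs). Among members with cDNAs on both sides, Nxph1 and Grid1 were lowest (-3.28 each, with 1 and 1 cDNAs) and Lphn3 (0.21) and Lphn2 (0.13) highest. Between fractions 0 of 16 were called and the median was 0.21, beside 0.67 over all genes, with Nxph1 at -0.87, Dag1 at -0.71, Ptprs at 2.22 and Lphn2 at 2.29.

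Scaffold proteins inside the synapse formed a list of 23 genes. Among 3, 1, 9 and 8 tested in the RNA tables (same order) 1 was called in the authors' deposited tables. Of all tested records 0.114%, 3.07%, 0.975% and 2.51% were called there. Apba1, the presynaptic adaptor Mint1 that binds neurexins through Cask, fell by 0.54 on the log2 scale in hnRNP R cell bodies, with 54.7 and 37.8 FPKM listed by the authors' deposited table (q = 0.0146). In 7SK cell bodies, which share these controls, the authors' deposited table lists it at 50.4 and 38.9 FPKM (log2 ratio -0.37, q = 0.0830). List medians were 0.27, -0.07, 0.08 and 0.07, beside 0.14, 0.23, 0.02 and 0.06 over all tested records, from the authors' deposited tables. In hnRNP R cell bodies Lin7c (-0.25) was next lowest and Shank1 (0.32) and Dlg2 (0.16) highest, and hnRNP R axons had Dlg4 at 0.18, Shank1 at 0.27 and Cask at 0.84, per the authors' deposited tables. 7SK cell bodies had Shank1 (-0.89) and Apba1 lowest and Apba2 (0.66) among the highest, and axons labelled 7SK knockdown had Dlg4 at -0.07, per the authors' deposited tables.

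Of the scaffolds 21 were kept in iCLIP and edgeR called 18 higher and 0 lower in motoneurons, with a median log2 difference of 2.26. The share called higher was 23.4% of all genes, 81.4% with introns over 500 kb and 54.7% with 100 to 500 kb. Intron length was not tested as a part of these calls. Apba2, Lin7a, Dlgap2, Shank1, Shank3 and Dlg3 passed the count filter only through their motoneuron cDNAs, 6 of the 21. Apba2 (7.66), Lin7a (7.14) and Dlgap2 (6.48) were highest. Magi2 was at 4.81, Shank1 at 4.80, Shank3 at 4.42, Dlg3 at 4.10, Shank2 at 3.20 and Cask at 3.10. Homer1 (2.26), Apba1 (2.10), Dlgap1 (2.08), Dlgap4 (1.86), Dlgap3 (1.17), Dlg2 (1.08), gephyrin Gphn (0.88) and Magi1 (0.61) followed. Lowest were Dlg1 (0.03) and Lin7c (0.57), and with Dlg4 (0.60), which encodes PSD-95, they were not called. The differences of Gphn and Magi1 are smaller than the shift of the median of all genes between TMM scaling and library totals. Against IgG 0 were called, from Shank1 (-2.49, 2 and 1 cDNAs) and Dlgap3 (-0.65) to Dlg2 (1.02) and Dlg1 (1.36) among those with cDNAs on both sides. Between fractions 0 of 21 were called, with a median of 0.68, from Lin7c (-2.28) and Homer1 (-0.72) to Magi1 (2.87) and Dlg2 (3.06).

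Genes of the juxtaparanode and the contactin family, the partners and relatives of Cntnap2, made a list of 20. They were nearly all too low for the RNA tests, with 0, 0, 2 and 1 tested (same order) and 0 called in the authors' deposited tables. Of all tested records of hnRNP R and 7SK cell bodies 0.975% and 2.51% were called. hnRNP R cell bodies had Adam23 at 24.6 and 14.1 FPKM (-0.80, q = 0.410) and Cntn1 at 70.1 and 75.5 FPKM (0.11, q = 0.800), and 7SK cell bodies had Cntn1 at 64.5 and 47.9 FPKM (-0.43, q = 0.0667), values read from the authors' deposited tables. In iCLIP 16 were kept and edgeR called 14 higher and 0 lower in motoneurons, with a median of 5.00. The share called higher was 23.4% of all genes, 81.4% with introns over 500 kb and 54.7% with 100 to 500 kb. Intron length was not tested as a part of these calls either. Cntnap3, Cntnap4, Cntnap5a, Cntnap5c, Cntn4, Cntn6, Kcnab1 and Lgi1, 8 of the 16, passed the count filter only through their motoneuron cDNAs. The Cntnap2 relatives Cntnap5a (8.98), Cntnap5c (7.63), Cntnap5b (6.90), Cntnap4 (5.84) and Cntnap3 (4.24) were all called. So were the contactins Cntn4 (8.89), Cntn5 (8.42), Cntn6 (5.76), Cntn1 (4.13) and Cntn3 (3.22). Lgi1 (6.71) with its receptors Adam23 (2.42) and Adam22 (1.75), and the potassium channel subunit Kcnab1 (3.92), completed the calls. Cntnap1 (-1.35), the paranodal relative, and Kcnab2 (0.42) were lowest and not called. Against IgG 0 were called, from Cntnap5b (-2.77) and Cntnap1 (-0.30) to Cntn3 (0.13) and Adam22 (1.75) among those with cDNAs on both sides. Adam23 had 65 NSC34 cDNAs and 0 with IgG, a bound of 1.41-fold, and was not called (edgeR adjusted p = 0.132). Between fractions 0 of 14 were called, with a median of 0.17, from Cntnap4 (-0.56) and Cntnap5b (-0.45) to Adam22 (1.39) and Cntnap1 (1.83).

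Genes whose iCLIP profile was most like that of each member were found by the correlation of log2(CPM + 1) over the 11 libraries, among 1770 genes (1771 for Nlgn2) with at least 200 cDNAs. Points share depth, and shallow libraries hold many zeros, so r is a description. Nearest to Cntnap2 were Ncam2 (r = 0.996), Csmd1 (0.994) and Epha7 (0.993). For Nlgn1 they were Mdga2 (0.999), Plcb1 (0.997) and Xkr4 (0.996), and for Nrxn3 Accn1 (0.985), Cadm2 (0.983) and Robo2 (0.983). Nrxn2 had Limch1 (0.998), Dapk1 (0.995) and Zfp827 (0.994) nearest. Nlgn2, with 53 cDNAs in all, had Scaper (0.913) and Sorcs3 (0.873), and Nlgn3, with 40, was under the minimum of 50. High r was common, since 175 genes exceeded 0.9 with Cntnap2 and 168 with Nlgn1.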

How the data were processed

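RNA-seq gave 22 libraries and iCLIP 11, in 15 groups taken from the labels. The authors deposited FPKM as 1 value per group in 4 comparison tables, and the submitters' processing notes name Cufflinks 2.2.1, FastQC 0.10.1 and GRCm38. Each log2 ratio in the deposited tables is knockdown over GFP control, each score is the authors' test statistic, and the p-value and q-value beside it are also the authors' own. A gene was called at q under 0.05 with a completed test, and no refit was possible. Each count of iCLIP cDNAs was deposited per gene and part of a gene, on mm9 with Ensembl release 59, per the file headers. The signal per base in the deposited files (count over part length) gave the part lengths. For aligner, trimming, collapsing of reads and RNA annotation: not given in the sources used here. No coordinates were moved between builds.

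The tests on counts used edgeR 4.0.16 under R 4.3.3 (quasi-likelihood, TMM, at least 10 cDNAs over the libraries of a fit, Benjamini-Hochberg at 0.05), with an SE taken as the log2 difference over the square root of F. The script was tested on simulated data. One fit held the 5 unfractionated libraries, with the lone IgG library assumed to vary like the others, and another the 6 fractions with a block per pair. DESeq2 1.42.0 was an alternative, as were library totals, no count filter, introns only, leaving out each replicate or pair, a replicate block, no IgG library, and for RNA an unadjusted p, added FPKM (0.1 and 1) and centring on the median. Replicates within a group differed by more than sampling noise (chi-square over degrees of freedom 3.80 in motoneurons and 2.73 in NSC34 cells). Another 1199 columns of the iCLIP files were not used.

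Members are all named. Of each list, the 2 highest and 2 lowest tested genes and every called one are named, and for members with at least 50 cDNAs the 3 genes most alike. A few genes that this rule names are not reported here. The members and lists were chosen with earlier results of these data known. No sequences are shown.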

Additional observations from a re-analysis of the deposited data

How the results depend on the processing

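Nlgn1, Cntnap2 and Nrxn3 kept their calls in motoneurons against NSC34 cells under all 10 alternatives, and the members called ranged from 4 to 6. The count of genes called was 3566, and 1497 with DESeq2. Leaving out a replicate gave 1954 (without NSC34 replicate 1) to 3106 genes, and leaving out the IgG library 3515. With a replicate block 3211 were called and all 6 members kept their calls. Deviations of same-numbered libraries correlated at r = -0.0044 over 3320 genes. With so few libraries per cell type this cannot show whether the numbers pair the samples. Against IgG, 51 genes were called, 11 with DESeq2, 81 with library totals (1 member, Nrxn3), 31 with introns only and 6 (without NSC34 replicate 2) to 38 when 1 library was left out. Cntnap2 turned to 0.13 with introns only. Between fractions library totals gave 1 call, and leaving out a pair 0 to 6, the latter without the motoneuron pair, where 1 member could be fitted. There Nrxn3 turned to -0.51 without the pair block and ranged from -0.033 to 0.48 without a pair of antibody 1 or 2, Nlgn3 turned to 0.20 with introns only and Cntnap2 ranged from -0.78 to 0.074 without a pair. The cause was not tested.

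At an unadjusted p under 0.05 the authors' tests gave 162, 183, 340 and 299 genes (hnRNP R axons, axons labelled 7SK knockdown, hnRNP R cell bodies, 7SK cell bodies) in place of 2, 31, 27 and 49, and 1 member, Nrxn3, in each hnRNP R table. Centring turned Nlgn2 in hnRNP R cell bodies to -0.0097 and Cntnap2 in 7SK cell bodies to -0.029. No paired analysis was possible because the RNA tables hold group values. Depth limits Nlgn2 and Nlgn3, with 53 and 40 cDNAs in all, and NSC34 fractions most.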

Other observations

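Antisense cDNAs on Cntnap2 outnumbered sense cDNAs in NSC34 cells and were rare in motoneurons. Pooled over the 6 NSC34 libraries with hnRNP R antibodies, Cntnap2 had 47 antisense and 31 sense cDNAs, and over the 4 motoneuron libraries 21 antisense and 7580 sense. By library, antisense cDNAs of Cntnap2 in unfractionated NSC34 cells were 24 and 8, and in the nuclear fractions 10 with antibody 1 and 4 with antibody 2. Over all genes the unfractionated NSC34 libraries held 20531 and 5013 antisense beside 456721 and 99762 sense cDNAs. Unfractionated motoneuron libraries held 11688 and 6897 beside 359005 and 319381. Sense cDNAs on Cntnap2 were few in NSC34 cells and not called above IgG. Nrxn3 had 18 antisense and 21 sense cDNAs in NSC34 cells and 19 and 4014 in motoneurons. Nlgn1 had 3 and 9 in NSC34 cells and 6 and 4275 in motoneurons. With IgG none of the 6 genes had an antisense cDNA in a library of 36280 sense cDNAs, where 0 allows up to 82.7 CPM (cDNAs scaled to library depth).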
